A study of Mus musculus with 24 samples.

Results

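Blood lineage genes were followed through the methylation of CpGs at their gene ends. The genes were Runx1, Gata2, Tal1, Lmo2, Spi1 and Klf1, which code for transcriptional regulators, and Kdr, Cd34, Ptprc and Itga2b, which code for cell surface proteins. At each gene, calls were pooled over all CpGs within 1000 bp of whichever mm10 gene end had more CpG positions in the deposited table, and the level is methylated calls over all calls. These 10 genes are among 21631 protein-coding genes placed in this way, and all 10 are among the 20320 whose window held at least 5 CpGs and at least 10 calls in every library. The window of each gene was set by CpG positions, without its methylation level.

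The cells were mouse induced pluripotent stem (iPS) cells, grown on feeder cells. They were wild type or one of the clones N5 and N9, which carry a knock-in that expresses the microRNA miR-203 when doxycycline is given. Libraries were made at t=0, before doxycycline. Those of day 10 were made 5 days after a doxycycline course of 5 days, and those of day 25 were made 20 days after it. The last stage was embryoid bodies, cell aggregates that differentiate, at day 32. The wild-type cells of day 10 and day 25 are labelled as treated with doxycycline too. The embryoid bodies of both clones are labelled with doxycycline. Those of the wild type are labelled with 10 days of differentiation, without mention of doxycycline, where the design gives 7 days. In embryoid bodies the clones and the wild type therefore differ in these labels as well as in genotype. Each stage thus had 2 knock-in libraries, 1 per clone, and 1 wild-type library, whose 2 sets of calls were taken as its lanes. A clone is 1 cell line, so the spread between N5 and N9 is that between these 2 lines. The N5 libraries of t=0, day 25 and embryoid bodies were sequenced on a different flow cell from all other libraries. At these stages the spread between clones and that between flow cells cannot be told apart. The libraries were whole-genome bisulfite libraries with an oxidation step, which keeps 5-hydroxymethylcytosine from being read as 5-methylcytosine.

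Blood cells and endothelial cells arise from shared mesodermal precursors. Methylation of CpGs at a gene's start is commonly low where the CpGs are dense and high where they are sparse. Pluripotent cells express few of these genes, and the genes come on in steps. Kdr comes on in mesoderm, and Tal1, Lmo2, Gata2 and Itga2b in blood-forming precursors. Runx1 comes on at the emergence of blood stem cells, and Klf1, Spi1 and Ptprc in maturing lineages. Runx1 is transcribed from a distal and a proximal promoter.

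RefSeq promoter sequences of the build GRCm38.p6 were available for 8 of the 10 genes, and in these 8 the window lay at the 5′ end of the gene. Spi1 and Lmo2 had no entry, so which end of these genes was measured is not known here. The promoters below are shown because they run from few CpGs to many and belong to genes whose levels differed. Each runs 5′ to 3′ along the gene, from 250 bases before the start to 50 bases after it, with every CpG in capitals.
Runx1 distal, chr16:92826025-92826324, minus strand: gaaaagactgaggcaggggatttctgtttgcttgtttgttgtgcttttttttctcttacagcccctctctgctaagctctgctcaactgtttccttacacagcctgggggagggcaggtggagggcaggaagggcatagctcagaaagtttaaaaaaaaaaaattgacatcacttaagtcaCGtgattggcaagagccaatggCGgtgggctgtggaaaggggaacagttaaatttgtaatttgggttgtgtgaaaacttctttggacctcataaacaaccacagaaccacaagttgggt
Runx1 proximal, chr16:92697280-92697579, minus strand: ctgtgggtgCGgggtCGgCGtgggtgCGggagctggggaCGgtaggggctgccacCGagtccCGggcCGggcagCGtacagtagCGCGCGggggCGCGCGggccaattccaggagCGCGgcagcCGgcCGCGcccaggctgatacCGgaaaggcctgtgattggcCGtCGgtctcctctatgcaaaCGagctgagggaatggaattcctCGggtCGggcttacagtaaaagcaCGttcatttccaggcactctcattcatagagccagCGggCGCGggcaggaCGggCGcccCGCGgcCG
Itga2b, chr11:102469834-102470133, minus strand: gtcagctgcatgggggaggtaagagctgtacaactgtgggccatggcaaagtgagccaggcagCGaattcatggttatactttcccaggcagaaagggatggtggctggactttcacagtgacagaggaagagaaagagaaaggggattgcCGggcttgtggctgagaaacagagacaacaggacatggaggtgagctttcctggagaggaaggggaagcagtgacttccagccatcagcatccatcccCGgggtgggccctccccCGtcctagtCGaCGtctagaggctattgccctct
Cd34, chr1:194938571-194938870, plus strand: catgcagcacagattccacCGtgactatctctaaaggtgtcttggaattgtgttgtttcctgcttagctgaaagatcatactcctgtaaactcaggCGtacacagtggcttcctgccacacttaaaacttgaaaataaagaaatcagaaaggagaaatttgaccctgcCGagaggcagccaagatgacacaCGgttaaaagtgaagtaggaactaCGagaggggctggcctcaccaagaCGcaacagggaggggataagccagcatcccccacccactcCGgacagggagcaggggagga
Gata2, chr6:88193641-88193940, plus strand: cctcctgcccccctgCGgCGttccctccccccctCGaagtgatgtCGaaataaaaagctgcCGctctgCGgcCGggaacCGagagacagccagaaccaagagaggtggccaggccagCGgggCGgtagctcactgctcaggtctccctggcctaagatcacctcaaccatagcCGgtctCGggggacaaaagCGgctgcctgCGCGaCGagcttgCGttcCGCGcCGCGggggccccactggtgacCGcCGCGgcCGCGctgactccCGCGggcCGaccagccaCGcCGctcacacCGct
The distal Runx1 promoter holds 2 CpGs and the proximal promoter 35. The Itga2b promoter holds 6, Cd34 7 and Gata2 32, where the median over 32851 RefSeq promoters is 7. Of 4 motifs searched on both strands, the RUNX letters TGTGGT occur 2 times in the distal Runx1 promoter, both downstream of the start and on the opposite strand, and in 16.8% of all promoters. The ETS letters GGAAGT occur 1 time in the Itga2b promoter and in 23.8% of all promoters. The GATA letters AGATAA (11.2% of all promoters) and the CACCC box letters CCACACCC (3.6%) occur in none of the 5 sequences. A match describes the letters only.

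The libraries held 102896335 to 191210205 calls at CpGs, a mean of 4.70 to 8.74 per CpG. In the member windows a library had 25 to 1274 calls, with a median of 403. Ptprc had the fewest (25 to 74 calls per library over 17 CpGs). Reads from the start of chromosome Y stood at 0.0386 and 0.0402 of the autosomal coverage in N5 and N9 at t=0, at 0.0130 and 0.0109 at day 25, and at 0.0002 to 0.0019 in the other 8 libraries. Their source, and their part in the member levels, was not tested. The marker list of fibroblasts, a usual feeder cell, had 12 of 12 gene ends tested, with a pooled level of 15.5% and 16.8% in the clones at t=0, 12.0% and 13.2% at day 25, and 24.3% to 26.1% in the 3 embryoid body libraries. That of pluripotency markers had 10 of 10 tested, with pooled levels of 6.84% to 17.7% over the 12 libraries. Fewer methylated cells and less methylation per cell cannot be told apart in such bulk DNA.

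At t=0 the members spanned nearly the whole range of levels. The mean of the clones was 84.1% ± 2.70 (SD, n = 2) at Ptprc, 81.7% ± 1.20 at Runx1 and 75.8% ± 0.113 at Itga2b. Lmo2 stood at 52.2% ± 4.10, between the high and the low ends. Klf1 (23.2% ± 6.90), Spi1 (22.1% ± 3.23) and Cd34 (18.1% ± 1.55) followed, and Gata2 (6.84% ± 2.93), Kdr (6.79% ± 3.18) and Tal1 (2.55% ± 1.19) were lowest. The clone values overlapped between Ptprc and Runx1, Klf1 and Spi1, Klf1 and Cd34, and Gata2 and Kdr, and no test was made of this order. The ends with at least 60 CpGs were those of Gata2 (119), Tal1 (103), Kdr (81) and Spi1 (62).

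**Figure D1:**
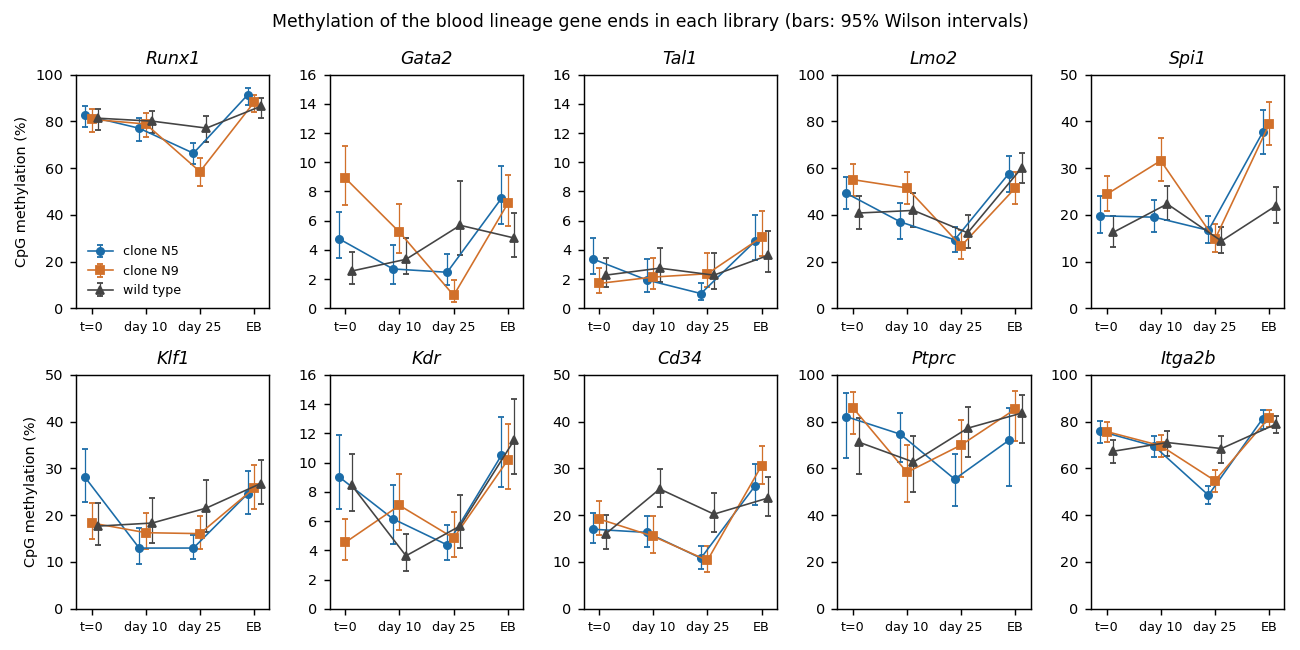
CpG methylation of each member window (y axis, %; the scale differs between panels) at the 4 stages (x axis; EB, embryoid bodies) in clone N5, clone N9 and the wild type; points are single libraries and bars are 95% Wilson intervals of the calls. In the Runx1 and Itga2b panels both clones at day 25 lie below every other library, while the wild-type points stay between 77.1% and 86.4% at Runx1 and between 67.3% and 78.9% at Itga2b.

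From t=0 to day 25 the gene ends of Runx1, Itga2b, Lmo2, Gata2, Ptprc and Cd34 fell in methylation in the clones. That is 6 of 10 members, by edgeR's quasi-likelihood test with Benjamini-Hochberg adjustment over all 20320 ends, where 40.2% of all tested ends fell. With limma 4 of 10 passed, and 5882 of the 20320 ends fell. A share of 6 in 10 is not far from the background of edgeR. The median change was -8.12 percentage points over the members and -3.90 over all ends, and -1.15 against -0.98 in log2 odds (the log2 of methylated over unmethylated calls, which puts high and low levels on 1 scale). The members began higher, at a median level of 22.7% against 10.1%. The values of each library were also centred, so that changes are relative to the median end. With limma 0 of 10 members then passed (adjusted p 0.541 to 0.990), as did 0 of all 20320 ends. Tal1, Spi1, Kdr and Klf1 took the opposite sign. Both t=0 and day 25 libraries of a clone came from the same flow cell, as did its embryoid bodies, so each of these changes is within a flow cell.

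Runx1 (window chr16:92825074-92827074), a regulator needed for the emergence of blood stem cells, began at 82.6% in N5 and 80.9% in N9, followed by 77.0% and 78.9% on day 10. The day 25 levels were 66.4% and 58.5%, and embryoid bodies held 91.3% and 88.2%. In the wild type the 4 levels were 81.3%, 80.1%, 77.1% and 86.4% at these stages. Both clones were thus lowest at day 25 and highest in embryoid bodies. The clones fell by 19.3 points ± 4.35 (SD of the 2 clone changes) from t=0 to day 25 (edgeR adjusted p = 0.00309). The wild-type change was -4.24 points, with a 95% Wilson interval of 71.0% to 82.2% for its level at day 25. Such intervals cover counting error only.

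The high level of Runx1 belonged to the distal start, which is the gene end. At the proximal start, whose window holds 116 CpGs, the level was 0.168% to 2.48% in all 12 libraries. N5 went through 0.216%, 0.415% and 1.11% at t=0, day 25 and the embryoid body stage, and N9 through 0.651%, 0.168% and 2.48%. The change from t=0 to day 25 there did not pass (-0.143 points, edgeR adjusted p = 0.66), where 38.2% of 19688 windows at RefSeq starts fell. From day 25 to embryoid bodies it rose (2.42 in log2 odds, edgeR adjusted p = 0.00549), as 74.5% of these windows did. The 35 CpGs printed above for the proximal promoter had 0.174% ± 0.246 (SD, n = 2) in the clones at day 25 and 1.85% in the wild type. These are 1 of 287 calls in N5, 0 of 131 in N9 and 1 of 54 in the wild type. The sparse CpGs of the distal promoter had 100% in both clones at t=0, from 16 calls in all, and 80.9% ± 1.29 (SD, n = 2) at day 25. The wild type had 88.9% (18 calls) and 81.8% (11 calls) there. The body of the gene between the end windows, where a library had 17072 to 32329 calls, gave 70.1%, 53.0% and 77.4% in N5 and 69.4%, 51.8% and 76.3% in N9 for t=0, day 25 and embryoid bodies.

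Gata2 (window chr6:88192891-88194891), a regulator of blood stem and progenitor cells, had a low level throughout and gave 4.78% in N5 and 8.91% in N9 before doxycycline and 2.70% and 5.22% by day 10. By day 25 these clones stood at 2.48% and 0.894%, and their embryoid bodies at 7.53% and 7.19%. The wild-type series read 2.56%, 3.36%, 5.69% and 4.82%. The clones fell by 5.16 points ± 4.05 to day 25 (edgeR adjusted p = 0.00361). The call was lost without the N9 library of day 25 (adjusted p = 0.0564) and without that of t=0 (0.0667). The bins within 200 bp of the start held 0.505% and 0.341% in the pooled clones at day 25 and 4.57% and 0.761% in embryoid bodies, and the wider change lay upstream. In the bin from 1000 to 801 bp upstream, which has only 2 CpGs, the pooled clones went through 53.5% (43 calls), 6.45% (31 calls) and 74.3% (35 calls) over t=0, day 25 and the embryoid body stage. Gata2 has another RefSeq start further 3′, where the level was 0.690% to 6.53% over the libraries and the change to day 25 was -0.58 points (edgeR adjusted p = 0.558).

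Tal1 (window chr4:115055426-115057426), which works in a complex with Lmo2 and GATA factors, began at 3.40% in N5 and 1.71% in N9, followed by 1.95% and 2.15% on day 10. The day 25 levels were 1.02% and 2.37%, and embryoid bodies held 4.60% and 4.88%. Wild-type levels in the order of the stages were 2.28%, 2.76%, 2.28% and 3.63%. The wild type lay between the clones at t=0 and day 25, and the change to day 25 did not pass (-0.857 points ± 2.15, edgeR adjusted p = 0.247). Lmo2 (window chr2:103980878-103982878), the bridging partner in that complex, gave 49.3% in N5 and 55.1% in N9 before doxycycline and 37.0% and 51.5% by day 10. By day 25 these clones stood at 29.3% and 26.7%, and their embryoid bodies at 57.7% and 51.5%. In the wild type the 4 levels were 40.8%, 41.9%, 32.3% and 60.2% there. Both clones were lowest at day 25, and so was the wild type. Lmo2 fell by 24.1 points ± 5.98 in the clones (edgeR adjusted p = 0.00249), against -8.47 points in the wild type.

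Spi1 (window chr2:91114759-91116759), which codes for the myeloid and B cell regulator PU.1, began at 19.8% in N5 and 24.4% in N9, followed by 19.5% and 31.6% on day 10. The day 25 levels were 16.7% and 14.8%, and embryoid bodies held 37.6% and 39.4%. The wild-type series read 16.2%, 22.3%, 14.4% and 21.9%, so its embryoid bodies lay under those of the clones. With equal weight per CpG, over CpGs called in every library, the gap was narrower, at 26.1% and 21.9% in the clones and 20.2% in the wild type. The change to day 25 did not pass (-6.37 points ± 4.61, edgeR adjusted p = 0.173). Klf1 (window chr8:84900982-84902982), an activator of red cell genes, gave 28.1% in N5 and 18.3% in N9 before doxycycline and 13.0% and 16.3% by day 10. By day 25 these clones stood at 13.0% and 16.1%, and their embryoid bodies at 24.6% and 25.8%. Wild-type levels in the order of the stages were 17.7%, 18.3%, 21.5% and 26.8%. What were taken as the 2 wild-type lanes differed here by 21.3, 16.0, 10.3 and 2.87 points, in the same order. Those of t=0 read 6.15% and 27.5%. The median difference over all 40 such pairs of the members was 4.34 points. N5 had the highest of the 12 levels at t=0 and the lowest ones at day 10 and day 25, and the change of the clones to day 25 did not pass (-8.71 points ± 9.08, edgeR adjusted p = 0.0662). With equal weight per CpG the change was -3.93 points in the clones and -6.04 in the wild type, whose sign thus turned. Klf1 lies on chromosome 8, whose coverage relative to the autosomes was 1.32 to 1.36 in 6 of the 8 clone libraries, 1.09 in N5 at day 10, 1.20 in N9 embryoid bodies and 1.00 to 1.04 in the wild type. Its part in the Klf1 levels was not tested.

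Kdr (window chr5:75978072-75980072), a receptor for vascular endothelial growth factor, began at 9.04% in N5 and 4.54% in N9, followed by 6.15% and 7.07% on day 10. The day 25 levels were 4.37% and 4.84%, and embryoid bodies held 10.5% and 10.2%. In the wild type the 4 levels were 8.44%, 3.62%, 5.67% and 11.6%. All 3 lines were highest in embryoid bodies, and the change of the clones to day 25 did not pass (-2.18 points ± 3.51, edgeR adjusted p = 0.301). Cd34 (window chr1:194937821-194939821), a sialomucin of blood progenitors and endothelium, gave 17.0% in N5 and 19.2% in N9 before doxycycline and 16.3% and 15.5% by day 10. By day 25 these clones stood at 10.8% and 10.3%, and their embryoid bodies at 26.3% and 30.6%. The wild-type series read 16.0%, 25.6%, 20.2% and 23.7%, so at day 25 both clones were below every wild-type library. Cd34 fell by 7.53 points ± 1.89 in the clones (edgeR adjusted p = 0.0428). The call was lost when any 1 of the 4 libraries compared was left out (adjusted p 0.0863 to 0.168), and with limma, and the change was -4.10 points when each CpG had equal weight.

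Ptprc (window chr1:138174756-138176756), which codes for the pan-leukocyte phosphatase CD45, began at 82.1% in N5 and 86.0% in N9, followed by 74.6% and 58.3% on day 10. The day 25 levels were 55.4% and 70.0%, and embryoid bodies held 72.0% and 85.4%. Wild-type levels in the order of the stages were 71.2%, 62.7%, 77.2% and 83.7%. The clones crossed between stages, and what were taken as the 2 wild-type lanes of t=0 differed by 44.1 points. Ptprc fell by 21.4 points ± 7.62 in the clones (edgeR adjusted p = 0.0204), a call lost without the N5 library of day 25 (adjusted p = 0.201) or the N9 library of t=0 (0.168), and with limma. Of its 17 CpGs, 6 were called in every library. With equal weight for each of these the change was -37.8 points, with -55.6 in N5 and -20.0 in N9. Itga2b (window chr11:102468883-102470883), which codes for the platelet integrin CD41, an early mark of blood-forming cells, gave 75.9% in N5 and 75.8% in N9 before doxycycline and 69.5% and 69.7% by day 10. By day 25 these clones stood at 48.6% and 54.8%, and their embryoid bodies at 81.2% and 81.7%. In the wild type the 4 levels were 67.3%, 71.1%, 68.5% and 78.9%. Itga2b had the lowest p of the members here, with a fall of 24.2 points ± 4.50 in the clones (edgeR adjusted p = 0.00145) and a change of 1.17 points in the wild type.

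**Figure D2:**
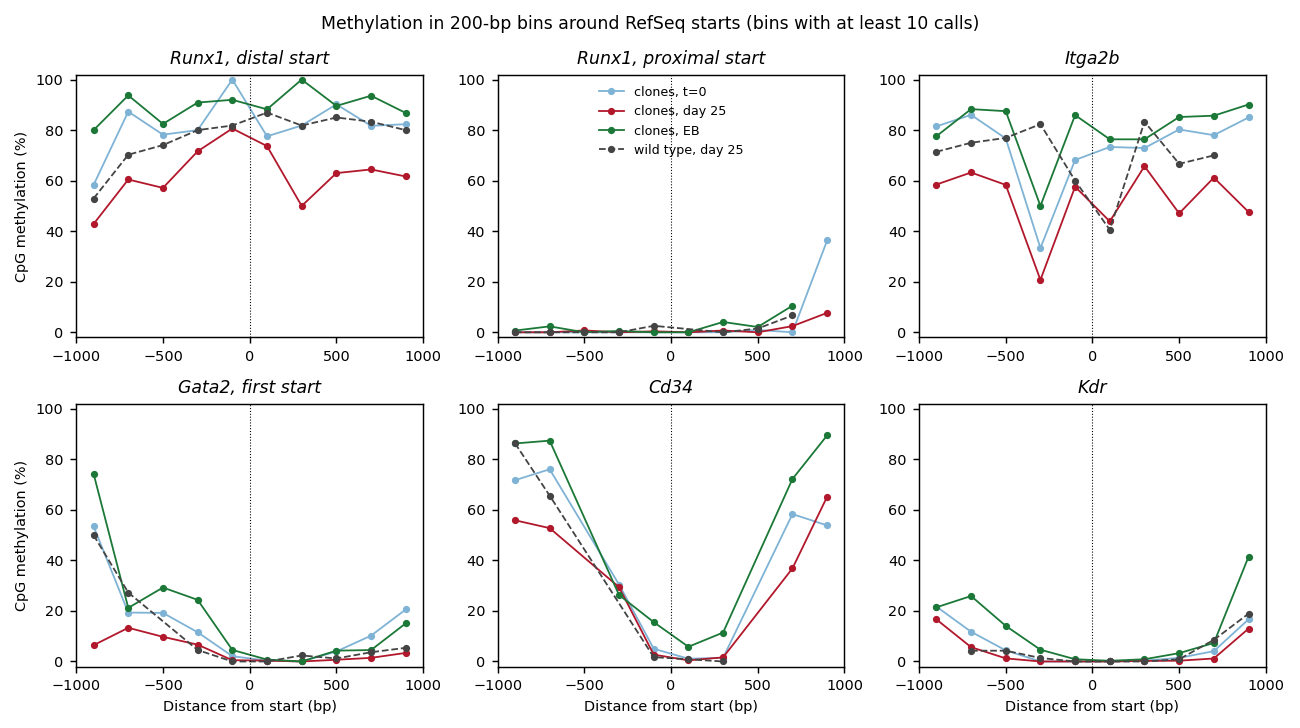
Methylation (y axis, %) in bins of 200 bp by distance from the RefSeq start (x axis, bp, along the gene) for pooled clones at t=0, day 25 and in embryoid bodies (EB) and for the wild type at day 25, in bins with at least 10 calls. The distal Runx1 and the Itga2b profiles shift along their length, while at Gata2 and Kdr the bins next to the start stay low and the flanks carry the wider changes. At Cd34 the bins on both sides of the start are higher in EB than at the other stages.

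At Cd34 the bins beside the start were higher in embryoid bodies too. Its 18 CpGs from the start to 200 bp downstream went through 1.09% (368 calls), 0.450% (444 calls) and 5.83% (309 calls) in the pooled clones over the same stages. In the 5 CpGs up to 200 bp upstream the values were 5.06%, 2.72% and 15.6%. Wild-type embryoid bodies had 3.29% and 9.80% in these bins. The 6 CpGs of the printed Itga2b promoter, in contrast, had 72.3% ± 5.18 (SD, n = 2) in the clones before doxycycline and 50.9% ± 1.70 by day 25, while embryoid bodies had 82.8% ± 3.89. The wild-type level of day 25 was 51.2%. The wild type had 48.4% at this promoter at t=0 already, from 62 calls, so it did not show the t=0 level of the clones.

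Between t=0 and day 10 no member passed (0 of 10 by edgeR and by limma, against 2 and 1 with an unadjusted p below 0.05), where edgeR called 0.197% of all ends in either direction. The median change was -3.33 points, and adjusted p ran from 0.339 at Ptprc to 0.978 at Kdr. Both clones were lower at day 10 than at t=0 in 7 members, and their mean was lower at 14754 of the 20320 ends. At an unadjusted p below 0.05 edgeR gave 2040 ends lower and 294 higher, and limma 1684 and 340. The N5 libraries of t=0 and day 10 came from different flow cells, so its change here crosses them. With a replicate block and a flow cell term edgeR gave 1168 ends lower and 386 higher. The N9 clone at Ptprc had the widest single change, from 86.0% to 58.3%.

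From day 25 to embryoid bodies all 10 members rose in the clones by edgeR's test, where 74.6% of all ends rose. With limma 9 of 10 passed, Ptprc being lost, and 14579 of the 20320 ends rose. The median rise was 16.9 points over the members and 7.22 over all ends, or 1.70 against 1.53 in log2 odds. Runx1 rose by 27.3 points ± 3.37 (adjusted p = 4.25e-06) and Itga2b by 29.8 ± 4.05 (1.06e-05). Lmo2 rose by 26.6 ± 2.46, Spi1 by 22.8 ± 2.60 (13.0 points with equal weight per CpG), Cd34 by 17.9 ± 3.39 and Klf1 by 10.7 ± 1.34. The 3 ends with the most CpGs rose by less, with 5.74 ± 0.552 at Kdr, 5.67 ± 0.883 at Gata2 and 3.04 ± 0.763 at Tal1. Ptprc was at the edge of the threshold (16.0 points ± 0.869, edgeR adjusted p = 0.0499). With equal weight for each of its 6 CpGs called in every library, its clones went opposite ways, by 44.4 points in N5 and -6.43 in N9. The call was lost with the clones as a replicate block (0.0616) and without the N5 or the N9 library of t=0 (0.0522 and 0.0532). Without the N5 library of day 25 only 6 members passed, the lost ones being Tal1, Ptprc, Kdr and Klf1, and without the N9 embryoid bodies Ptprc and Klf1 were lost (adjusted p 0.44 and 0.0553). Relative to the median end, by centred limma values, 0 of 10 passed, as did 0 of all 20320 ends. Ptprc, Kdr and Klf1 took the opposite sign.

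The wild type also had higher levels in embryoid bodies than at day 25 in 9 of 10 members, with a median of 6.19 points. Gata2 was the exception, with -0.872 points. Its wild-type library of day 25 had 38 of 334 calls (11.4%) within 200 bp of the start, where the other 11 libraries had 24.2% to 39.8% of theirs. With equal weight for each of the 71 Gata2 CpGs called in every library, the wild-type differences were 1.75 points from t=0 to day 25 and 2.00 points from day 25 to embryoid bodies, and those of the clones -6.96 and 7.89 points. Lmo2 had nearly the same rise in the wild type (27.9 points) as in the clones.

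**Figure D3:**
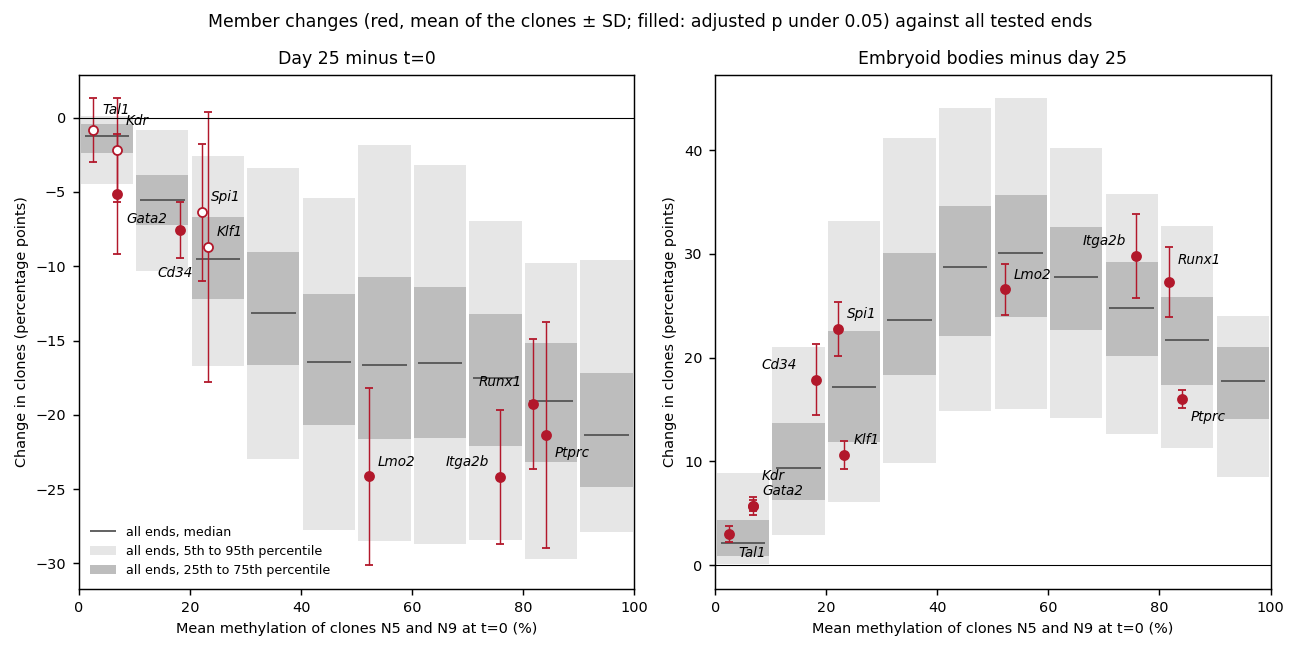
Change of each member in the clones (y axis, percentage points; red points, mean ± SD of the 2 clones, filled where adjusted p was under 0.05) against its mean level at t=0 (x axis, %), over the 5th to 95th and 25th to 75th percentiles and the median of all tested ends in bands of 10%. The t=0 level enters both axes of the left panel. After centring the values of each library none of the 20320 ends passed, and so no member. Tal1, Spi1, Kdr and Klf1 (left) and Ptprc, Kdr and Klf1 (right) changed sign.

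Of the 4 members with at least 60 CpGs 1 fell to day 25 (26.5% of all such ends) and 4 rose afterwards (63%). Of the other 6, 5 fell (56.1% of ends with fewer CpGs) and 6 rose (88.1%). Read against ends that began at a like level, the members lay within the 5th to 95th percentiles in both steps, except Gata2 to day 25. In the band of 80% to 90% at t=0, where Runx1 and Ptprc lie, the median change of all ends to day 25 was -19.1 points and 80.7% of ends fell. In the band of 70% to 80%, with Itga2b, it was -17.6 points (25th to 75th percentile -22.1 to -13.2), so Itga2b moved more than 3 in 4 of these ends. In the band of 50% to 60%, with Lmo2, the median was -16.6 points. Gata2 changed by more than the 5th percentile of its band under 10% (-4.47 points), whereas Tal1 and Kdr lay between its 25th and 75th percentiles (-2.4 and -0.41). Gata2 (6.84% at t=0) and Kdr (6.79%) lay in the upper part of this band. An end cannot fall by more than its level at t=0. In the band of 10% to 20% the median change was -5.53 points to day 25 and 9.34 points afterwards. Position within a band was not accounted for. In the later step, 6 members rose by more than the 75th percentiles of their bands, which were 4.31 points for Gata2 and Kdr, 13.7 for Cd34, 22.6 for Spi1, 29.2 for Itga2b and 25.9 for Runx1. Klf1 (10.7 points) and Ptprc (16.0) rose by less than the 25th percentiles of theirs (11.9 and 17.3), and Tal1 and Lmo2 lay between. With equal weight per CpG the rises of Cd34 (12.1 points), Spi1 (13.0), Itga2b (27.4) and Runx1 (25.3) were under those 75th percentiles, which come from pooled calls. No test was made of these positions.

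Between t=0 and embryoid bodies 1 member passed by edgeR at the windows used here, and 0 by limma. Spi1 was higher in embryoid bodies of the clones by 16.4 points ± 2.01 (edgeR adjusted p = 0.0453), where 8.92% of all ends were higher. That share is edgeR's with all libraries, since 344 of the 20320 ends were higher without the N5 embryoid bodies and 1 with limma. With equal weight per CpG, the Spi1 difference was 5.43 points in the clones and 8.22 in the wild type. The call was lost without any 1 of the 6 clone libraries of t=0, day 25 and embryoid bodies (adjusted p 0.0533 to 0.23). Runx1 (8.03 points, adjusted p = 0.0933), Cd34 (10.3 points, 0.105) and the other members did not pass. In place of Spi1, Cd34 passed with windows of 500 bp (edgeR adjusted p = 0.0405), Kdr at its RefSeq start (4.21 points, 0.0336) and Lmo2 at its other end (0.0274). Over all genes 1250 of 19060, 1643 of 16053 and 2702 of 19527 windows were higher under these settings, in this order. In the wild type all 10 members had higher levels in embryoid bodies than at t=0, by a median of 6.68 points.

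The clones did not pass against the wild type at any member at t=0, day 10, day 25 or in embryoid bodies (0 of 10 each by edgeR and by limma), where edgeR called 0.536%, 0.0148%, 10.2% and 0.0689% of all ends in either direction. At day 25 limma called 567 ends lower and 5 higher, and edgeR with a replicate block and a flow cell term 795 and 3. In that fit the wild type was set in the block of N5. At t=0 limma called 3 lower and 1 higher, at day 10 it called 0 and in embryoid bodies 2, all higher. At an unadjusted p under 0.05 edgeR gave 1, 0, 4 and 1 members and limma 0, 0, 3 and 1. Both clones were higher than the wild type in 7 members at t=0 and lower in 8 at day 25. The mean of the clones was lower than the wild type in 1 member at t=0 and 9 at day 25. Over all 20320 ends it was lower at 6801 and 17306. At day 25 the differences were -16.8 points at Itga2b (edgeR adjusted p = 0.0984), -14.7 at Runx1 (0.111), -9.66 at Cd34 (0.0945) and -4.00 at Gata2 (0.0835). With 1 wild-type library per stage, assumed to vary as the clones do, a p over the threshold does not show that the levels were alike.

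The difference between the clones' and the wild type's change from t=0 to day 25 passed at no member (0 of 10 by edgeR and limma). At an unadjusted p under 0.05 there were 4 members by edgeR and 2 by limma. By edgeR 2.11% of all ends passed, and 5132 were lower and 48 higher at that unadjusted p. Over all ends limma called 0, with 4532 lower at an unadjusted p under 0.05, and edgeR called 7 without the N9 library of day 25. Gata2 came nearest (-8.29 points, -3.23 in log2 odds, edgeR adjusted p = 0.0511), followed by Itga2b (-25.4 points, 0.0954). The Gata2 value includes the wild-type library of day 25 with few calls near the start (11.4%, against 24.2% to 39.8% in the others), whose part was not tested. From t=0 to day 10 (0 of 10 by edgeR and limma, 0 and 0 unadjusted) 0.0344% of all ends were called by edgeR and 0 by limma. From day 25 to embryoid bodies (0 of 10 by both, 4 and 3 unadjusted) it was 6.09% by edgeR, while limma called 197 ends. Gata2 was again nearest (6.55 points, edgeR adjusted p = 0.0832). At an unadjusted p under 0.05 edgeR gave 39 ends lower and 5286 higher, and limma 55 and 4874.

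**Figure D4:**
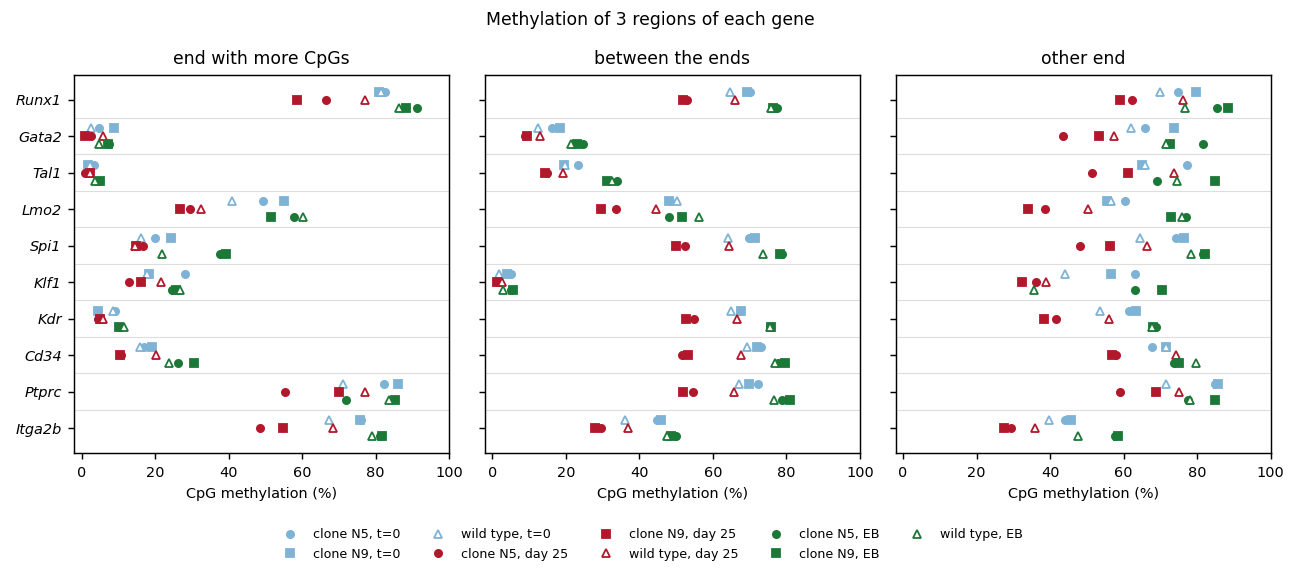
Methylation (x axis, %) of the end with more CpGs, the stretch between the end windows and the other end of each member (rows) at t=0, day 25 and in embryoid bodies (EB); circles are clone N5, squares clone N9 and open triangles the wild type. Between the end windows both clones lie below the wild type at day 25 in all 10 members, as they do over all CpGs (48.4% and 47.7% against 61.1%).

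The rest of each gene showed the dip of the clones at day 25 more evenly. By the choice of window, the other gene end is the one with fewer CpGs. Of all such ends tested 77.4% fell, against 40.2% of the ends with more CpGs. Between the end windows both clones were lower at day 25 than at t=0 in 10 of 10 members, by a median of 16.6 points, and the wild type in 4 of 10. Both clones lay below the wild type there in 10 of 10 members, by a median of 12.6 points. For example, Kdr had 67.4% and 54.9% in N5 and 67.8% and 52.8% in N9, before doxycycline and at day 25, with 64.8% and 66.5% in the wild type. Klf1, whose body is nearly unmethylated, had 5.01% and 4.09% at t=0 and 1.49% and 1.13% at day 25, with 1.87% and 2.67% in the wild type. These stretches were not tested in a fit, and neighbouring CpGs share reads. The dip was not particular to these genes. Over all CpGs, N5 had 64.7% at t=0 and 48.4% at day 25, and N9 64.8% and 47.7%. The wild type had 60.6% and 61.1%.

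At the other gene end, 9 of 10 members fell in the clones from t=0 to day 25 (edgeR adjusted p 0.000145 to 0.032), all but Cd34 (0.0756), where 77.4% of the 19527 other ends tested fell. Klf1 at this end had 63.1%, 36.2% and 63.2% in N5 and 56.5%, 32.4% and 70.4% in N9 for t=0, day 25 and embryoid bodies. The wild type had 44.2%, 39.0% and 35.5% at these stages and was lowest in embryoid bodies. The Klf1 difference between clones and wild type in embryoid bodies passed (1.87 in log2 odds, edgeR adjusted p = 0.024), where 0.0871% of other ends did. For the difference in the change from t=0 to day 25, Spi1 (-1.62, 0.0355) and Kdr (-1.45, 0.0404) passed at this end, 2 of 10 members where 22.9% of other ends did. For that from day 25 to embryoid bodies, Klf1 (2.15, 0.0145) and Runx1 (2.05, 0.0338) passed, where 14.3% did.

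Other genes of blood and endothelium were read from lists chosen with earlier results of these data known. Of 16 endothelial and haemangioblast genes, 6 fell from t=0 to day 25 (40.2% of all ends did) and 15 rose from day 25 to embryoid bodies (74.6% of all ends). They began at a median of 7.99%, and of all ends that began under 10%, 23.9% fell and 61.0% rose. The end of Eng, a co-receptor for TGF-beta signals, fell from 25.2% ± 9.00 to 4.82% ± 1.39 (SD, n = 2; edgeR adjusted p = 0.000141), that of Pecam1, an adhesion protein, by 33.8 points ± 14.5 (0.000423), and that of Tie1, a receptor kinase, by 22.9 ± 0.862 (0.00137). Cdh5, the cadherin of endothelial junctions, rose from 41.0% ± 0.917 at day 25 to 82.8% ± 3.25 in embryoid bodies (edgeR adjusted p = 3.02e-07). The wild-type differences from t=0 to day 25 were 8.93 points at Eng, 9.68 at Pecam1 and 4.91 at Tie1, and that of Cdh5 from day 25 to embryoid bodies was 20.7.

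Of 18 regulators of blood stem and progenitor cells, 7 fell to day 25 and 14 rose afterwards. Both shares were near those of all ends (40.2% and 74.6%). Of ends that began under 10%, as the median of this list did, 23.9% fell and 61.0% rose. Nfe2, a factor of red cells and platelets, fell by 27.1 points ± 5.83 (edgeR adjusted p = 0.000854) and rose by 46.0 ± 3.95 (2.78e-07). Ldb1, the adaptor of the Tal1 and Lmo2 complex, fell by 24.9 ± 1.74 (0.00189) and rose by 42.0 ± 4.51 (8.28e-07). Lyl1, a relative of Tal1, fell by 5.20 ± 1.60 (0.000634), and Gfi1b, a repressor of red cell and platelet precursors, rose by 24.5 ± 0.607 (1.05e-06). Wild-type differences to day 25 were -5.11 points at Nfe2, 9.19 at Ldb1 and 3.30 at Lyl1, and those to embryoid bodies 26.3 at Nfe2, 1.82 at Ldb1 and 5.49 at Gfi1b. These 18 ends began at a median of 2.90%, well under the 69.3% of the red cell and platelet genes.

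Of the red cell and platelet genes, 13 of 14 were tested, and Ahsp had no match. Among them 11 fell to day 25 and 13 rose afterwards. Of ends that began at 60% to 70%, as the median of this list did, 52.3% fell and 89.5% rose, and of those at 70% to 80% it was 63.4% and 90.5% (40.2% and 74.6% of all ends). Pf4, a platelet chemokine, fell by 29.0 points ± 14.1 (edgeR adjusted p = 0.000363) and rose by 31.6 ± 8.53 (3.87e-06). Gp9, a platelet glycoprotein, fell by 24.4 ± 0.176 (0.000642). Slc4a1, the anion exchanger of red cells, fell by 24.8 ± 3.29 (0.00178) and rose by 36.1 ± 2.65 (2.44e-06), and Hba-x, an embryonic globin whose reads may be shared with related globin genes, rose by 37.9 ± 8.80 (3.59e-06). The wild-type differences to day 25 were 4.38 points at Pf4, -2.24 at Gp9 and -0.654 at Slc4a1, and those to embryoid bodies -3.06 at Pf4, 22.4 at Slc4a1 and 9.84 at Hba-x.

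Of 16 white cell genes, 11 fell and 15 rose. They began at a median of 68.2%, in the same band of 60% to 70% (52.3% and 89.5% of its ends). Lck, a T cell kinase, fell by 22.1 points ± 0.844 (edgeR adjusted p = 0.00106), Cd68, of macrophages, by 25.9 ± 6.82 (0.00231) and Cd79a, of the B cell receptor, by 23.6 ± 3.56 (0.00299). Csf3r, a receptor of granulocytes, rose by 36.1 ± 0.970 (5.66e-07), Itgam, an integrin of myeloid cells, by 35.2 ± 9.19 (8.18e-07) and Cd3e, of the T cell receptor, by 40.7 ± 0.982 (9.78e-07). The first 3 of these genes differed by -10.1, -2.70 and 0.511 points to day 25 in the wild type, and the last 3 by 30.5, 5.97 and 17.6 to embryoid bodies. The median change to day 25 was -17.6 points in this list, -16.7 in the red cell and platelet list, -3.10 in the endothelial list and -1.72 in the stem and progenitor list, in the order of their levels at t=0 but for the first pair. With centred limma values 0 of all 20320 ends passed in this comparison, with 1770 at an unadjusted p under 0.05, so none of these lists kept a call relative to the median end.

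Lists of other cells were read in the same way. Of 10 pluripotency markers, 7 fell to day 25 and 6 rose afterwards, against 40.2% and 74.6% of all ends. Nanog fell by 8.48 points ± 1.07 (edgeR adjusted p = 0.00095) and Dppa4 by 12.1 ± 2.22 (0.00259), both being genes of the pluripotent state. Tdgf1, a co-receptor of that state, fell by 6.21 points ± 0.048 (0.00232). Esrrb rose by 31.6 ± 1.82 (1.78e-05), Tfcp2l1 by 6.79 ± 2.24 (2.12e-05) and Nanog by 9.69 ± 5.83 (4.13e-05), all 3 coding for pluripotency factors. The wild-type differences to day 25 were -0.363 points at Nanog, 3.67 at Dppa4 and -4.52 at Tdgf1, and those to embryoid bodies 29.1 at Esrrb, 1.04 at Tfcp2l1 and -9.74 at Nanog. Of the 12 fibroblast markers 3 fell, namely Thy1, Twist2 and S100a4 (edgeR adjusted p 0.0163 to 0.029), and 12 rose in embryoid bodies (40.2% and 74.6% of all ends), with the lowest p at S100a4 (35.6 points ± 4.82), Prrx1 (16.6 ± 2.70) and Col1a2 (17.0 ± 5.50). These last 3 differed by 31.2, 15.9 and 16.9 points in the wild type, and Thy1, Twist2 and S100a4 to day 25 by -1.38, 2.01 and -4.08.

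Over the 12 libraries, the end on another chromosome most like Runx1 was that of Cyp2c23 (Pearson r = 0.985, among 16190 ends), and Itga2b was most like Kncn (0.985 among 15278). The values for the other members were 0.968 for Kdr with Syt5, 0.963 for Cd34 with Six2, 0.962 for Lmo2 with Tbc1d10c, 0.96 for Tal1 with Galnt2, 0.954 for Gata2 with Ms4a15 and for Spi1 with Srbd1, 0.937 for Klf1 with Chek1 and 0.924 for Ptprc with Nupl2. The points of such a correlation share their libraries, and with it the genome-wide level of each library, so these pairs describe the pattern only. The end of Six2 ran from 0.208% to 1.51% over the libraries, far under that of Cd34.

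Noncoding transcripts of the annotation overlap 3 member windows. They are Gm38708 at Gata2 and Gm32727 at Kdr, each over the whole window of 2001 bp, and Gm52674 at Tal1 over 156 bp. Methylation in these windows belongs to both transcripts. No other protein-coding gene or its tested window overlapped a member window.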

How the data were processed

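The authors deposited, for each CpG of mm10, the count of calls read as methylated and the count of calls in total. A knock-in library has 1 pair of columns, which was taken to hold both of its lanes. A wild-type stage has 2 pairs, which the headers name rep1 and rep2. These were taken as the 2 lanes of 1 library, though no header ties them to a lane. The deposited wild-type coverage values hold whole numbers and were used as counts of calls. BWA, Picard 1.91 and mm10 are named in the submitters' processing notes, while no label or header names the tool that called methylation (not given in the sources used here). All 32 value columns matched a sample, and 2392630 of 21875444 CpG positions had no call.

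Wild-type lanes were summed, which gave 12 libraries in all. Calls were pooled per window and fitted with edgeR 4.0.16 (quasi-likelihood F test, R 4.3.3) on methylated and unmethylated counts, with 8 groups, a common dispersion of 0.024 and 4 residual degrees of freedom. Benjamini-Hochberg adjustment ran within each of 11 comparisons, at a threshold of 0.05. The lone wild-type library of a stage was assumed to vary like the clones. The labels do not say that libraries came from separate cultures, so p-values measure the spread between these libraries. limma 3.58.1 on log2 ratios (1 call added), with and without centring per library, other windows and coverage minimums, a replicate block, and leaving out each clone library were alternatives. The test was checked on simulated data. The genes named from lists are the 3 with the lowest p in each list from t=0 to day 25 and the 3 from day 25 to embryoid bodies. Members and lists were chosen with earlier results of these data known.

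The clone is shared between stages, so N5 and N9 pair the libraries. The difference between them correlated between stages with r of 0.009 to 0.051 over 19214 windows. Levels rest on a mean of 4.70 to 8.74 calls per CpG.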

Additional observations from a re-analysis of the deposited data

How the results depend on the processing

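Of 21 alternatives, centring each library ended all member calls. It gave 0 members from t=0 to day 25, 0 from day 25 to embryoid bodies and 0 between t=0 and embryoid bodies. Over all 20320 ends, centring gave 0, 0 and 1 calls. Under it the log2 odds took the opposite sign from t=0 to day 25 at Tal1 (0.22), Spi1 (0.24), Kdr (0.33) and Klf1 (0.028), from day 25 to embryoid bodies at Ptprc (-0.22), Kdr (-0.047) and Klf1 (-0.30), and from t=0 to embryoid bodies at Gata2 (-0.28), Lmo2 (-0.32) and Klf1 (-0.28). The cause was not tested. Runx1, Itga2b and Lmo2 lost their t=0 to day 25 call under no other alternative. Cd34 with windows of 500 bp, Kdr at the RefSeq start and Lmo2 at the other end took the place of Spi1 as the 1 call from t=0 to embryoid bodies (edgeR adjusted p = 0.0405, 0.0336 and 0.0274, where 1250 of 19060, 1643 of 16053 and 2702 of 19527 windows were higher). That count was also 0 with windows of 2000 bp, with limma and with wild-type lanes as 2 samples, and Ptprc changed sign there with windows of 2000 bp (0.84) and at the RefSeq start (0.41).

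Leaving out 1 clone library gave 4 to 6 calls from t=0 to day 25, 6 to 10 from day 25 to embryoid bodies and 0 to 1 from t=0 to embryoid bodies. Signs turned at Kdr from t=0 to day 25 (range -1.05 to 0.017), and from t=0 to embryoid bodies at Gata2 (-0.30 to 0.66), Ptprc (-1.09 to 0.08), Lmo2 (-0.036 to 0.32) and Klf1 (-0.22 to 0.58).

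The clones against the wild type gave 2 calls at day 25 with windows of 2000 bp (Runx1 and Cd34). They gave 1 in embryoid bodies at the other gene end (Klf1). Over all ends the former setting called 5200 of 20674 lower and 8 higher, and the latter 1 of 19527 lower and 16 higher. The difference in change from t=0 to day 25 gave 1 call with a minimum of 30 calls, with windows of 2000 bp (Itga2b), with a replicate block and a flow cell term, without chromosome 8 and with wild-type lanes as 2 samples, the call being Gata2 where no gene is named, and 2 at the other end. It gave 0 to 1 when a library was left out. For day 25 to embryoid bodies it was 1 with windows of 2000 bp (Runx1) and 2 at the other end. Over all ends, windows of 2000 bp called 3229 of 20674 lower for the difference to day 25. They called 3009 higher for that to embryoid bodies. Where Gata2 was called, 456 of 19268, 1120 of 20320, 443 of 18551 and 1325 of 20320 ends were lower, in the order named.

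With the clones as a replicate block 6 members were called from t=0 to day 25 and 9 from day 25 to embryoid bodies, Ptprc being lost (adjusted p = 0.0616), and no other member call changed. Calls over all ends from t=0 to day 25 were 8170, and 3314 with windows of 500 bp, 13814 with 2000 bp, 15119 at the other end, 5882 with limma, 0 when centred and 4177 to 8548 with a library left out. Windows at the RefSeq start and equal weight per CpG were chosen after seeing the data. Equal weight per CpG used only CpGs called in every library. Ptprc rests on few calls.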
